A study of Macaca mulatta with 6 samples.

Results

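The genes described here encode the motile cilium axoneme and the intraflagellar transport (IFT) particles that build it. They were taken from the rows of the count table by gene name: names starting with DNAH, DNAI, DNALI, CFAP, RSPH, DRC, ODAD, TEKT or IFT followed by a digit, with a summed count of at least 10 over the 6 libraries. Of 28536 genes in the table, 106 had such a name and 103 reached the sum. They comprised 48 CFAP, 12 DNAH, 5 DNAI, 4 DRC, 4 ODAD, 6 RSPH, 5 TEKT and 18 IFT genes and DNALI1. The 3 genes below the sum were CFAP97D1, DNAH14 and RSPH6A, with 3, 6 and 7 counts, and the lowest sums above it were 137 for DNAH8, 216 for TEKT5 and 356 for CFAP299. All 103 passed the filter on low counts and were tested.

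The data were poly(A) RNA-seq counts from tracheal tissue of rhesus monkeys (Macaca mulatta), with 3 libraries in each of 2 groups. Control animals received normal saline. In the other group a tracheal lubricant coated with the material Oxy@Lipo/Gel was used, in a model of endotracheal intubation under general anaesthesia. The labels name intubation and anaesthesia for the Oxy@Lipo/Gel group alone, so if the controls were not intubated, the material and the intubation cannot be told apart. The labels give no age or sex of the animals, no dose and no time of exposure, and do not say whether each library came from a separate animal. The p-values therefore measure the spread between these libraries, which may be technical.

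Motile cilia of the airway beat to move mucus and stand on multiciliated cells. Their axoneme is a ring of doublet microtubules around a central pair. Outer and inner dynein arms (DNAH, DNAI and DNALI chains) slide the doublets, and the docking complex (ODAD) holds the outer arms. The nexin-dynein regulatory complex (DRC) and the radial spokes (RSPH) control the beat. Tektins (TEKT) and many CFAP proteins line the inside of the doublets or form the central pair. IFT trains carry parts along the cilium, with IFT-B moving outward and IFT-A bringing the trains back, and serve the single primary cilium of many other cell types as well. Below, the 85 genes whose names do not start with IFT are called axonemal, although a few act at the ciliary base or in assembly of the arms.

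Library totals ran from 17097177 to 23405294 counts, and a count of 3 corresponded to 0.125 to 0.204 CPM (counts scaled to library size, with sizes normalised by the TMM method). The 103 genes took 1.34%, 0.280% and 1.55% of all counts in control 1, 2 and 3, and 1.71%, 1.35% and 0.670% in Oxy@Lipo/Gel 1, 2 and 3. Control 2 thus stood apart, and results are given with and without it. Libraries differed in other cell types as well. Beside the axonemal genes, which summed to 11389, 2601 and 12822 CPM in the controls, the summed level of 12 basal cell markers was 8465, 15206 and 3423 CPM. In the Oxy@Lipo/Gel libraries the axonemal genes summed to 13758, 11734 and 6271 CPM and the basal markers to 5094, 2941 and 4577 CPM. In bulk tissue, fewer cells of a type and less RNA per cell cannot be told apart.

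DNAH8, a dynein heavy chain known from the outer arms of sperm tails, was the only one of the 103 genes called between the groups, and it was higher with Oxy@Lipo/Gel at a very low level. No gene of the axoneme or of IFT was called lower. Of the 103 genes, 1 was called higher and 0 lower by edgeR's quasi-likelihood test at an adjusted p under 0.05, against 0.851% and 0.685% of all 18676 genes tested. At an unadjusted p under 0.05 there were 4, namely DNAH8 and CFAP46 (higher) and CFAP99 and CFAP68 (lower), where 23.3% of all genes tested lay. DESeq2 called 2, DNAH8 higher and CFAP68 lower, against 13.4% of all genes it tested, and limma-voom called 0, against 1.07%.

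The fold changes of most of the remainder were small beside their errors. Exceptions included CFAP68 (-0.65 ± 0.17, log2 and SE), CFAP99 (-1.05 ± 0.40), CFAP46 (1.45 ± 0.56) and CFAP141 (1.53 ± 0.70). The median log2 fold change of Oxy@Lipo/Gel over control was 0.24 over the 85 axonemal genes and 0.25 over the 18 IFT genes, with -0.04 over all genes tested; 80 of the 103 genes lay above 0 and 23 below. This direction depended on single libraries. Without control 2 the medians were -0.17 and -0.07, and 39 genes lay above 0 and 64 below. Without Oxy@Lipo/Gel 1 they were -0.0084 for axonemal and 0.06 for IFT genes. The axonemal median stayed above 0 in each fit that left out another library. It was 0.43 and 0.56 without control 1 and 3, and 0.22 and 0.49 without Oxy@Lipo/Gel 2 and 3. The fit without control 2 kept Oxy@Lipo/Gel 3, which also took a low share of counts for these genes. Leaving out control 2 changed the sign for 41 of the 103 genes, 35 of them axonemal. In that fit edgeR called 0 of the 103 genes, against 0.719% of the 19342 genes tested. At an unadjusted p under 0.05 there were 8 of the 103, against 21.9% of all genes tested.

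**Figure D1:**
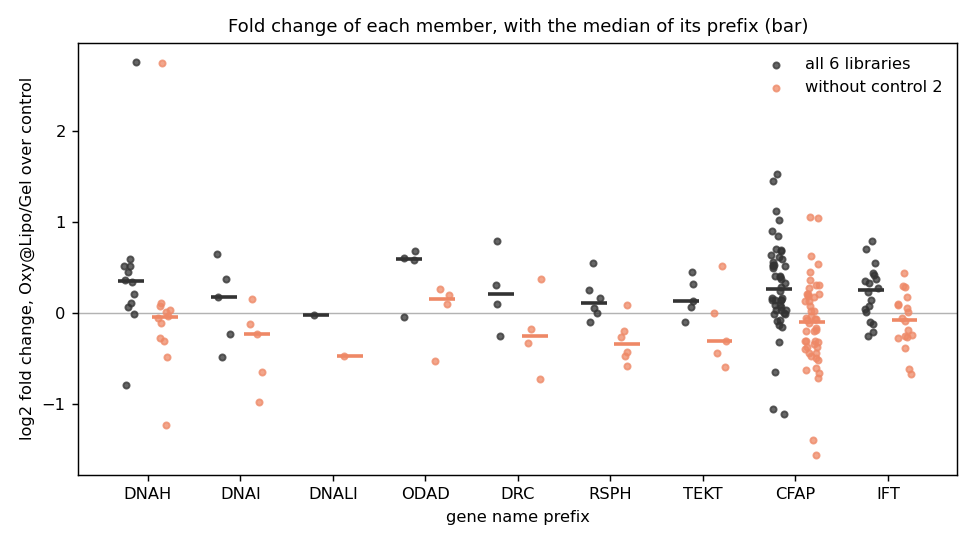
Log2 fold change of Oxy@Lipo/Gel over control (edgeR) for each of the 103 genes by name prefix, with all 6 libraries (dark) and without control 2 (orange); bars are medians. With all libraries most genes lie above 0, and without control 2 the median of every prefix except ODAD lies below 0.

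The main difference in these genes ran between libraries rather than between groups. Control 2 held the lowest CPM of the 6 libraries for 94 of the 103 genes (91.3%), against 26.4% of all genes tested. Relative to the mean of the other controls, the median axonemal gene was lower there by a log2 difference of -2.33 and the median IFT gene by -1.24, while the median over all genes was 0.06. Oxy@Lipo/Gel 3 was the second low library: control 2 and Oxy@Lipo/Gel 3 were the lowest pair for 94 genes (91.3%), against 14.6% of all genes tested. Its median difference from Oxy@Lipo/Gel 1 and 2 was -1.06 for axonemal and -0.89 for IFT genes, with 0.01 over all genes. The remaining 4 libraries lay close together, with a median difference between Oxy@Lipo/Gel 1 and 2 and control 1 and 3 of 0.11 for axonemal and 0.17 for IFT genes.

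**Figure D2:**
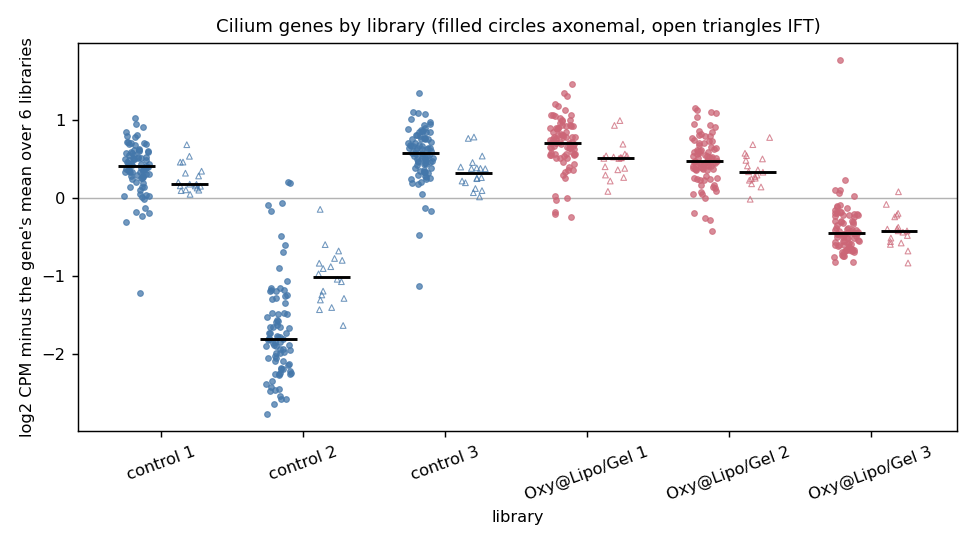
Log2 CPM minus each gene's mean over the 6 libraries, with a point per gene, circles for the 85 axonemal and triangles for the 18 IFT genes, and bars at the medians. In control 2 most points lie far below 0, with means of -1.71 for axonemal and -1.02 for IFT genes, and in Oxy@Lipo/Gel 3 the means are -0.40 and -0.41.

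The 7 outer-arm genes had a median log2 fold change of 0.20. DNAH5, an outer-arm heavy chain, was at 266, 44.7 and 288 CPM in control 1, 2 and 3 and at 329, 245 and 114 CPM in Oxy@Lipo/Gel 1, 2 and 3. The groups overlapped, with control 2 and Oxy@Lipo/Gel 3 lowest, and the log2 fold change was 0.20 ± 0.70 (SE, n = 3 per group; edgeR adjusted p = 0.884). DNAH9, an outer-arm heavy chain of the distal part of human airway cilia, was at 277, 41.2 and 288 CPM in the controls and 412, 317 and 140 CPM with Oxy@Lipo/Gel; the same libraries were lowest (log2 fold change 0.52 ± 0.73, edgeR adjusted p = 0.701).

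DNAH11, the outer-arm heavy chain of the proximal part of human airway cilia, had a fold change of the other sign. It was at 317, 72.1 and 346 CPM in the controls and at 165, 165 and 93.5 CPM with Oxy@Lipo/Gel. All Oxy@Lipo/Gel libraries lay below control 1 and 3 and above control 2, so the groups overlapped, and the log2 fold change was -0.80 ± 0.57 (edgeR adjusted p = 0.440). Without control 2 it was -1.24, with an edgeR adjusted p of 0.102. In the reference DNAH11 overlaps CDCA7L, which is also in the count table; whether counting used the strand is not stated.

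Both intermediate chains of the outer arm were low in control 2. DNAI1 was at 228, 64.2 and 266 CPM in the controls and 264, 234 and 134 CPM with Oxy@Lipo/Gel (log2 fold change 0.18 ± 0.53, edgeR adjusted p = 0.864). DNAI2 was at 125, 17.8 and 151 CPM in the controls and 208, 174 and 80.2 CPM with Oxy@Lipo/Gel (log2 fold change 0.65 ± 0.74, edgeR adjusted p = 0.629). The 2 groups overlapped for both genes.

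DNAH8 did not follow the libraries as DNAH5, DNAH9 and DNAH11 did. It had 6, 4 and 6 counts in the controls and 30, 40 and 51 counts with Oxy@Lipo/Gel, or 0.273 ± 0.0122 and 1.89 ± 0.765 CPM (mean ± SD, n = 3). Every Oxy@Lipo/Gel library lay above every control, and the highest was Oxy@Lipo/Gel 3, where most other axonemal genes were low. The log2 fold change was 2.76 ± 0.43 (edgeR adjusted p = 0.0404). In CPM, groups without overlap and higher with Oxy@Lipo/Gel were found for 3 of the 103 genes (DNAH8, CFAP46 and IFT74), against 12.2% of all genes tested. Lower ones were found for 1 (CFAP68), against 17.7%.

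The call on DNAH8 was lost in 5 of the 6 fits that left out 1 library: the adjusted p rose to 0.168, 0.0734 and 0.0878 without control 1, 2 and 3, and to 0.188 and 0.0990 without Oxy@Lipo/Gel 2 and 3. The log2 fold change stayed between 2.40 and 2.99 in these fits. Calls over all genes fell as well, so the loss was not particular to DNAH8. They were 1.54% with all libraries, 0%, 0.719% and 0% without control 1, 2 and 3, and 0% and 0.104% without Oxy@Lipo/Gel 2 and 3. Per length DNAH8 had the lowest level of the 103 genes, with 0.0187, 0.0162 and 0.0212 FPKM (fragments by gene length and library size) in the controls and 0.0952, 0.118 and 0.176 FPKM with Oxy@Lipo/Gel. Per 1000 counts of DNAH5, DNAH9 and DNAH11 together it had 0.304, 1.72 and 0.310 counts in the controls and 1.37, 2.32 and 7.87 counts with Oxy@Lipo/Gel, so that on this ratio control 2 lay above Oxy@Lipo/Gel 1.

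The 4 docking complex genes had the highest prefix median, 0.60, and ODAD was the one prefix whose median stayed above 0 without control 2 (0.15). ODAD3 was at 123, 33.7 and 137 CPM in the controls and 201, 166 and 104 CPM with Oxy@Lipo/Gel, with overlapping groups (log2 fold change 0.68 ± 0.53, edgeR adjusted p = 0.472). ODAD4 was at 232, 35.8 and 256 CPM in the controls and 223, 191 and 94.4 CPM with Oxy@Lipo/Gel, a log2 fold change of -0.04. None of the 4 was called.

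The 11 inner-arm genes had a median log2 fold change of 0.34, and none was called. DNAH10, a heavy chain of the inner arms and the DNAH gene with the highest level per length (22.9 FPKM), was at 374, 77.8 and 368 CPM in the controls and 493, 362 and 183 CPM with Oxy@Lipo/Gel (log2 fold change 0.34). DNAH3, another inner-arm heavy chain, was at 164, 25.6 and 174 CPM in the controls and 241, 208 and 101 CPM with Oxy@Lipo/Gel (log2 fold change 0.59). For both, the groups overlapped with control 2 lowest.

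DNAI3, an intermediate chain of the inner arms, had the lowest fold change of its prefix. It was at 110, 16.0 and 126 CPM in the controls and at 79.2, 65.5 and 34.9 CPM with Oxy@Lipo/Gel, so that all Oxy@Lipo/Gel libraries lay between control 2 and the other controls. The log2 fold change was -0.49 (edgeR adjusted p = 0.712), and without control 2 it was -0.98. With Oxy@Lipo/Gel 3 set aside as well, the mean log2 difference was -0.71. DNALI1, the light intermediate chain of the inner arms, was at 164, 35.3 and 190 CPM in the controls and 163, 143 and 75.9 CPM with Oxy@Lipo/Gel, a log2 fold change of -0.03.

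Genes of the spokes and of the nexin-dynein regulatory complex overlapped between the groups throughout. RSPH1, a protein of the spoke head, had the highest level per length of all 103 genes, with 296, 44.1 and 351 FPKM in the controls and 471, 373 and 167 FPKM with Oxy@Lipo/Gel. Its log2 fold change was 0.55 ± 0.68 (edgeR adjusted p = 0.655), and control 2 and Oxy@Lipo/Gel 3 were lowest. RSPH4A, also of the spoke head, was at 113, 11.6 and 123 CPM in the controls and 133, 115 and 47.5 CPM with Oxy@Lipo/Gel. RSPH9, the third spoke-head gene, was at 176, 27.9 and 202 CPM in the controls and 161, 148 and 69.0 CPM with Oxy@Lipo/Gel.

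The DRC genes had fold changes of either sign. DRC1, a scaffold of the complex, was at 189, 28.7 and 222 CPM in the controls and 237, 207 and 102 CPM with Oxy@Lipo/Gel (log2 fold change 0.31). DRC7 was at 44.2, 11.7 and 51.8 CPM in the controls and 82.5, 72.9 and 30.9 CPM with Oxy@Lipo/Gel (log2 fold change 0.79 ± 0.59, edgeR adjusted p = 0.457). DRC12 was at 143, 25.0 and 171 CPM in the controls and 124, 103 and 57.2 CPM with Oxy@Lipo/Gel (log2 fold change -0.26). In each case the groups overlapped.

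Tektins, filament proteins inside the doublets, had a median log2 fold change of 0.13. TEKT1 was at 342, 44.1 and 379 CPM in the controls and 349, 318 and 131 CPM with Oxy@Lipo/Gel (0.06 ± 0.76). TEKT2 was at 206, 41.1 and 207 CPM in the controls and 267, 231 and 120 CPM with Oxy@Lipo/Gel (log2 fold change 0.45). TEKT5, picked after its values were seen, did not have the shared profile: its 216 counts were spread as 1.48, 1.97 and 1.19 CPM in the controls and 2.16, 1.77 and 1.82 CPM with Oxy@Lipo/Gel, and control 2 was its highest control.

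The 48 CFAP genes had log2 fold changes from -1.11 to 1.53 with a median of 0.26. CFAP144, a microtubule inner protein with the highest level per length of its prefix, was at 241, 39.1 and 263 CPM in the controls and 223, 215 and 99.5 CPM with Oxy@Lipo/Gel (log2 fold change -0.02). The extremes were other genes. CFAP46, of the central pair, was at 142, 39.1 and 148 CPM in the controls and 401, 333 and 165 CPM with Oxy@Lipo/Gel. In CPM every Oxy@Lipo/Gel library lay above every control, and the log2 fold change was 1.45 ± 0.56 (edgeR adjusted p = 0.192). In FPKM, which use library totals without TMM scaling, Oxy@Lipo/Gel 3 (11.9) lay below control 3 (12.3). CFAP141, a microtubule inner protein, was at 7.88, 1.36 and 11.6 CPM in the controls and 27.1, 21.9 and 11.5 CPM with Oxy@Lipo/Gel. Oxy@Lipo/Gel 3 was near control 3, so the groups overlapped, and the log2 fold change was 1.53 ± 0.70 (edgeR adjusted p = 0.248). In the reference CFAP141 overlaps C1H1orf43, a gene of the count table.

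At the low end, CFAP210, a microtubule inner protein, was at 98.8, 21.7 and 123 CPM in the controls and at 42.9, 42.3 and 27.5 CPM with Oxy@Lipo/Gel. Control 2 lay below all Oxy@Lipo/Gel libraries and the other controls above them, and the log2 fold change was -1.11 ± 0.59 (edgeR adjusted p = 0.300). Without control 2 it was -1.57 (edgeR adjusted p = 0.0537), and with Oxy@Lipo/Gel 3 set aside as well the mean log2 difference was -1.37. CFAP99 was at 155, 63.6 and 190 CPM in the controls and at 77.5, 66.9 and 52.8 CPM with Oxy@Lipo/Gel. Its groups overlapped through control 2 alone, and the log2 fold change was -1.05 ± 0.40 (edgeR adjusted p = 0.186). Without control 2 it was -1.40 (edgeR adjusted p = 0.0533), and with Oxy@Lipo/Gel 3 set aside as well the mean log2 difference was -1.26.

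CFAP68, a microtubule inner protein singled out after its values were seen because DESeq2 called it, was at 13.8, 12.4 and 14.7 CPM in the controls and at 9.17, 8.89 and 8.04 CPM with Oxy@Lipo/Gel. Control 2 was near the other controls here, unlike for most axonemal genes, and all Oxy@Lipo/Gel libraries lay below all controls. The log2 fold change was -0.65 ± 0.17 (edgeR adjusted p = 0.112).

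The 18 IFT genes followed the same order of libraries with smaller differences. The 3 IFT-A genes had a median log2 fold change of 0.27 and the 15 IFT-B genes one of 0.23, and no IFT gene was at an unadjusted p under 0.05. IFT140, an IFT-A core protein, was at 119, 62.6 and 125 CPM in the controls and 152, 138 and 79.1 CPM with Oxy@Lipo/Gel (log2 fold change 0.27 ± 0.35). IFT172, a large IFT-B protein, was at 255, 133 and 264 CPM in the controls and 233, 221 and 144 CPM with Oxy@Lipo/Gel (log2 fold change -0.12 ± 0.33, edgeR adjusted p = 0.849). IFT88, an IFT-B core protein, was at 55.4, 28.8 and 58.98 CPM in the controls and 75.0, 68.5 and 39.1 CPM with Oxy@Lipo/Gel (log2 fold change 0.35 ± 0.35). Control 2 was lowest for all 3 genes and Oxy@Lipo/Gel 3 next.

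Control 2 was less far from the other controls for IFT than for axonemal genes. A drop of more than 2 on the log2 scale from the other controls was found for 57 of 85 axonemal genes and for 1 of 18 IFT genes (IFT22, -2.01, an IFT-B gene at 131, 33.4 and 139 CPM in the controls). It was smaller than 1 for 6 IFT genes, down to -0.29 for IFT20, and for 8 axonemal genes. Those 8 comprised CFAP410 and CFAP418 of the ciliary base, DNAH8 and DNAH17, known as heavy chains of sperm, TEKT5, CFAP36, CFAP68 and CFAP97. The mean log2 CPM of the IFT genes minus that of the axonemal genes was -0.23, 0.59 and -0.33 in the controls and -0.31, -0.22 and -0.11 with Oxy@Lipo/Gel, so the IFT genes stood above the axonemal genes in control 2 alone.

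IFT74, an IFT-B protein picked after its values were seen, was the IFT gene whose groups did not overlap in CPM. It was at 59.5, 33.1 and 60.4 CPM in the controls and 70.7, 72.5 and 60.9 CPM with Oxy@Lipo/Gel. The lowest Oxy@Lipo/Gel library thus lay just above the highest control. In FPKM the groups overlapped, with Oxy@Lipo/Gel 3 (11.1) below control 1 (12.1) and control 3 (12.7). The log2 fold change was 0.41 ± 0.25 (edgeR adjusted p = 0.362). IFT70B had the highest fold change of the IFT genes, at 32.0, 11.3 and 32.6 CPM in the controls and 59.8, 51.4 and 20.3 CPM with Oxy@Lipo/Gel (0.79 ± 0.52, edgeR adjusted p = 0.403). IFT70A, its near-identical copy, was at 60.6, 17.4 and 65.2 CPM in the controls and 104, 87.5 and 41.9 CPM with Oxy@Lipo/Gel, and how reads were divided between these copies is not stated.

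**Figure D3:**
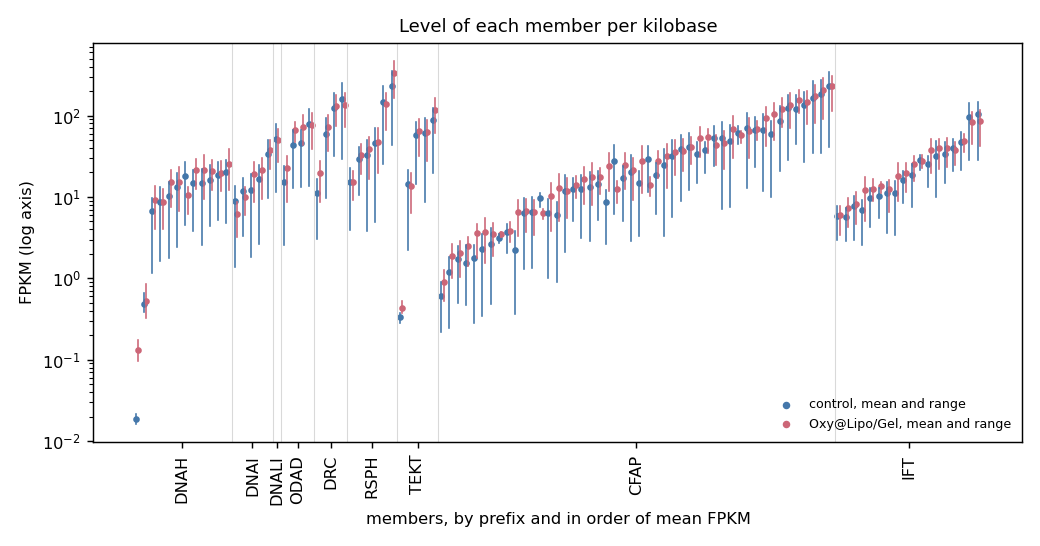
FPKM on a log axis for each of the 103 genes, ordered by mean level within each name prefix; points are the mean and lines the range of 3 libraries, controls in blue and Oxy@Lipo/Gel in red. The ranges of the groups overlap for most genes, RSPH1 is highest, and DNAH8, the lowest, is the gene at the far left of DNAH.

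Levels per length spread widely among the genes. The median over the 103 genes was 20.7 FPKM (mean of the 6 libraries for each gene), 12 genes were over 100 FPKM and 4 under 1 FPKM (CFAP299, DNAH17, TEKT5 and DNAH8). RSPH1 led with 283.7 FPKM, followed by CFAP144 with 230.4 FPKM. By prefix the medians were 97.4 FPKM for DRC, 61.3 for TEKT, 57.2 for ODAD, 41.2 for RSPH, 21.1 for CFAP, 19.9 for IFT, 15.5 for DNAI and 14.3 for DNAH. Of 102 neighbouring pairs in the order of levels, 96 differed by less than the SD between libraries of either gene in either group. The other 6 differed by more than the smallest of these SDs. They lay at or below IFT20 in the order, and 4 of them were neighbours among CFAP91, CFAP299, DNAH17, TEKT5 and DNAH8. Only TEKT5 and DNAH8 differed by more than every one of their SDs (0.309 FPKM).

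Among pairs of libraries, the axonemal genes kept their proportions most closely in 1 pair of each group, and more closely than other genes did. The SD over the 85 axonemal genes of the log2 difference between 2 libraries was 0.142 for control 1 and 3 and 0.151 for Oxy@Lipo/Gel 1 and 2, against 0.410 and 0.475 over 8435 other genes of like level. Between control 1 or 3 and Oxy@Lipo/Gel 1 or 2 it was 0.502 to 0.531, while over the other genes these pairs gave 0.513 to 0.620. Oxy@Lipo/Gel 3 differed from Oxy@Lipo/Gel 2 with an SD of 0.374 (0.361 over the other genes). From Oxy@Lipo/Gel 1 it differed with 0.428 (0.662), so there too the axonemal genes were less spread than the others. Control 2 differed from control 1 with 0.794 (0.716) and from control 3 with 0.816 (0.852), so in these control pairs the axonemal genes were about as spread as the others. All pairs with control 2 gave 0.664 to 0.918. These are descriptions, since genes are not independent replicates.

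**Figure D4:**
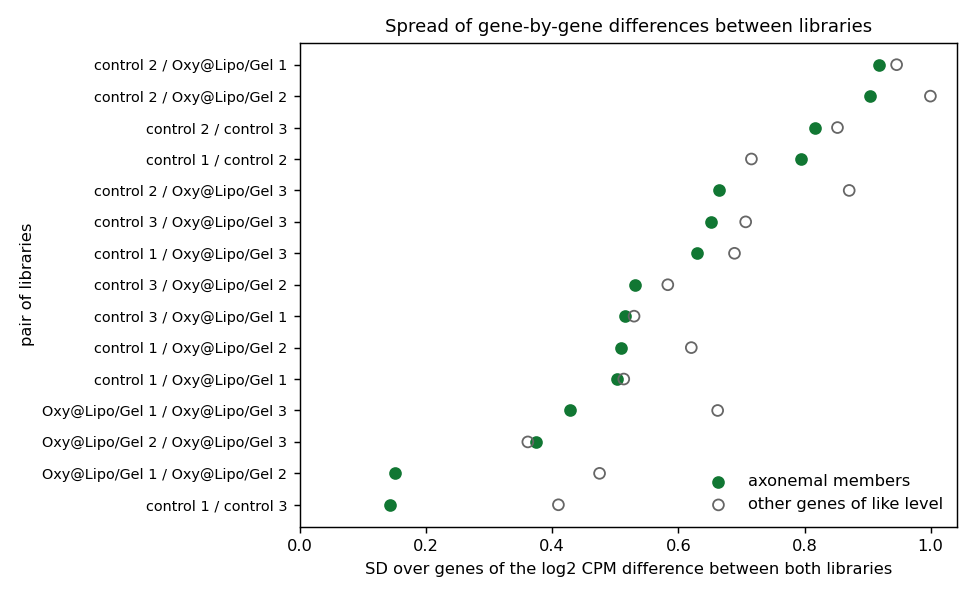
SD over genes of the log2 CPM difference for each pair of libraries, with filled circles for the 85 axonemal genes and open circles for other genes of like level. Axonemal genes give their lowest SD for control 1 and 3 (0.142) and for Oxy@Lipo/Gel 1 and 2 (0.151), well to the left of the other genes.

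To describe the genes apart from the shared drop, each gene's log2 CPM was taken relative to the mean of the 85 axonemal genes in the same library. This scale was chosen after the data were seen and moves the median log2 fold change of all genes from -0.04 to -0.84, or to 0.26 without control 2. On it 17 of the 103 genes were higher with Oxy@Lipo/Gel without overlap, against 3.29% of all genes tested, and 18 were lower, against 5.27%. These backgrounds are not like for like, because the scale is built from the axonemal genes and removes their shared differences between libraries. The 18 lower genes included 3 IFT-B genes, IFT22, IFT27 and IFT52.

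Of these 35 genes, 5 differed by more than 1 on the log2 scale. CFAP141 was at -3.39, -3.76 and -3.01 in the controls and -1.94, -2.03 and -2.06 with Oxy@Lipo/Gel, and CFAP46 at 0.77, 0.99 and 0.65 against 1.95, 1.89 and 1.77. CFAP99 was at 0.89, 1.69 and 1.02 in the controls and -0.42, -0.42 and 0.12 with Oxy@Lipo/Gel. CFAP210 was at 0.24, 0.15 and 0.39 in the controls and -1.27, -1.08 and -0.82 with Oxy@Lipo/Gel. DNAH11 was at 1.92, 1.87 and 1.88 in the controls and 0.67, 0.88 and 0.94 with Oxy@Lipo/Gel. On this scale control 2 lay with the other controls for CFAP46, CFAP141, CFAP210 and DNAH11, and was the highest control for CFAP99.

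The test across all genes made no call on this scale. In edgeR's quasi-likelihood fit with libraries scaled to the axonemal mean, 0 of the 103 genes and 0% of all 18676 genes were called, with 1 of the 103 genes, DNAH8, at an unadjusted p under 0.05, against 6.46% of all genes. Without control 2 as well, 0 of the 103 were called, against 0.165% of the 19342 genes tested (32 genes). There 7 of the 103 were at an unadjusted p under 0.05, against 10.4% of all genes.

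**Figure D5:**
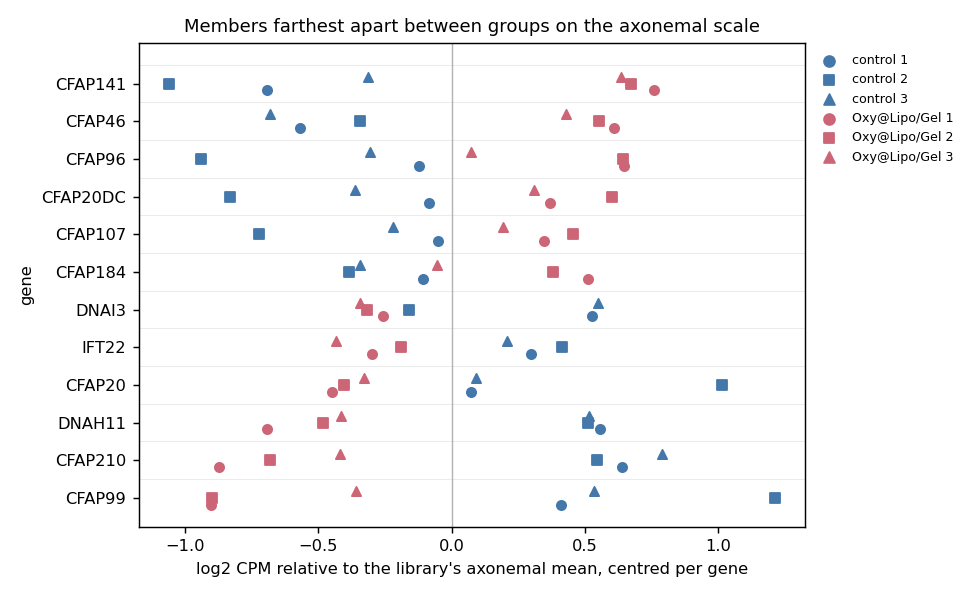
Log2 CPM relative to the mean of the 85 axonemal genes in the same library, centred per gene, for the 6 genes with the largest differences without overlap each way; each symbol is a library, controls in blue and Oxy@Lipo/Gel in red. CFAP141 and CFAP46 are higher and CFAP99, CFAP210 and DNAH11 lower in all Oxy@Lipo/Gel libraries than in all controls.

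Cilium genes outside these names were likewise low in control 2, and none was called. Lists of other arm and docking genes (12 tested), dynein arm assembly factors (16), central pair and spoke genes (15), IFT motors and other IFT proteins (15), the BBSome, which carries membrane cargo (12), and regulators of multiciliated cells (18) had 0 genes called in each direction by edgeR. Over all genes tested, 0.851% were called higher and 0.685% lower. At an unadjusted p under 0.05 the lists held 0, 0, 0, 2, 2 and 2 genes, against 23.3% of all genes tested. The median log2 fold changes of the lists were 0.29, 0.12, 0.22, 0.31, 0.06 and 0.46. In control 2 their median differences from the other controls were -2.29, -1.99, -2.13, -1.17, -0.90 and -1.53. FOXJ1, the transcription factor that switches on motile cilium genes, was at 822, 121 and 1024 CPM in the controls and 937, 826 and 339 CPM with Oxy@Lipo/Gel, low in the same libraries (log2 fold change 0.09, edgeR adjusted p = 0.952).

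Markers of other cell types moved with the libraries and with the groups, and their part in the values above was not tested. The 24 tested markers of multiciliated cells, none of them among the 103 genes, summed to 5955, 1348 and 6886 CPM in the controls and 6816, 6138 and 3195 CPM with Oxy@Lipo/Gel, and 0 were called by edgeR, with 2 at an unadjusted p under 0.05. The 12 basal cell markers had 0 called and 3 at an unadjusted p under 0.05, where 23.3% of all genes tested lay. Their median log2 fold change was -0.93, with 12 of 12 below 0, and -0.46 without control 2, where the median difference from the other controls was 1.38. The 14 markers shared by epithelial cells had 0 called, 1 at an unadjusted p under 0.05 and a median log2 fold change of -0.33. They summed to 5640, 4513 and 4509 CPM in the controls and 5523, 3800 and 3185 CPM with Oxy@Lipo/Gel, so control 2 was within the range of the other libraries for this sum. Gene by gene, control 2 was lowest for 7 of the 14 (50%), against 26.4% of all genes tested. The median difference from the other controls was -0.29.

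The median log2 fold change was 3.61 over gland genes, 0.93 over secretory, 2.83 over smooth muscle, 2.76 over cartilage, 1.18 over fibroblast and 1.08 over leukocyte genes. Of 10 gland genes edgeR called 5 higher, led by LTF, PRR4 and DMBT1, and they summed to 1749, 790 and 1304 CPM in the controls and 12503, 9293 and 30345 CPM with Oxy@Lipo/Gel. Of 15 secretory genes 1 was called higher, BPIFB1, with sums of 18706, 3646 and 16333 CPM in the controls and 13330, 16801 and 46594 CPM with Oxy@Lipo/Gel. Control 2 was lowest for 14 of these 15 (93.3%), with a median difference from the other controls of -2.18, so its drop was not particular to cilium genes. That difference was -0.87 for gland, -0.74 for leukocyte, -0.16 for smooth muscle, 0.11 for fibroblast and 0.34 for cartilage genes. The 12 smooth muscle genes had 0 called by edgeR but 12 at an unadjusted p under 0.05, with sums of 3334, 1605 and 1101 CPM in the controls and 2431, 19199 and 26021 CPM with Oxy@Lipo/Gel. Of 13 cartilage genes 3 were called higher (COL11A1, HAPLN1 and CNMD), of 7 leukocyte genes 1 (LCP1), and of 10 fibroblast genes 0, with 5 at an unadjusted p under 0.05. Over all genes tested, edgeR called 0.851% higher, and 23.3% were at an unadjusted p under 0.05. Oxy@Lipo/Gel 3, with the lowest axonemal sum of its group, had the highest gland, secretory, smooth muscle and fibroblast sums. Its cartilage, leukocyte and shared epithelial sums were the lowest of its group.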

How the data were processed

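RNA-seq of 6 tracheal libraries, 3 per group by the labels' descriptions, was used. The authors deposited a table of whole-number counts per gene and, per the file headers, a table of FPKM. FPKM were checked to be the counts divided by 1 fixed gene length and the library total (within 0.01) for 17796 of 17796 genes checked, so they are no independent measurement. Per the labels' protocols, libraries were poly(A)-selected, dUTP strand-specific and paired-end. The aligner, the counter and the gene annotation were not given in the sources used here. The submitters' processing notes name the builds GRCm38, rheMac8 and Mmul_8.0.1 without a role, so no coordinates or sequences are printed. The labels call the tissue a lubricated catheter in one field and speak of cell lines in the extraction text, while the treatment text names trachea. Replicates of a group all differed by more than sampling noise.

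The test was edgeR's quasi-likelihood F test (version 4.0.16, in R 4.3.3) on TMM-normalised libraries, after the filterByExpr filter (a count of 10, a total of 15), with a single group term and p adjusted by Benjamini-Hochberg over all 18676 genes tested, at 0.05. The SE is the log2 fold change divided by the square root of F. Log2 CPM for differences between libraries and for relative levels used a prior count of 2. The CPM of 3 counts covers counting error only. Alternatives were DESeq2 1.42.0, limma 3.58.1 (voom, and trend on log2 of FPKM plus 1 or 0.1), other size factors and filters, a replicate block, and each library left out. Scaling to the axonemal mean was added after the data were seen. Scripts were tested on simulated data.

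The genes and lists were chosen with earlier results of these data known. Named genes were, per prefix, the highest level per length and the highest and lowest fold changes (2 each for CFAP, DNAH and IFT), every called gene, and a fixed list of well-known members, 34 in all; others are said to be chosen afterwards or are counted. Of 238 genes in further lists 209 were in the table; 3 of these (CFAP90, CFAP298 and IFT25 under older symbols) are among the 103 and were left out of their lists, which leaves 206. Of the 103 symbols 102 were in the rhesus reference table (RefSeq, T2T-MMU8v2.0), all but RSPH10B, and 22 overlap another gene of the count table there. RSPH10B also has a near-identical copy, so its count is uncertain.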

Additional observations from a re-analysis of the deposited data

How the results depend on the processing

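Over all genes, 287 were called by edgeR with all libraries, 2492 by DESeq2, 0 with the replicate block, 0 to 628 when 1 library was left out, 0 with libraries scaled to the axonemal mean and 32 with that scaling and no control 2. Of the 103 genes, 1 was called by edgeR, 2 by DESeq2, 0 by limma-voom, 0 and 0 by limma-trend (FPKM pseudocounts of 1 and 0.1), 0 with the replicate block, 0 to 1 with 1 library left out, and 0 and 0 under the axonemal scalings. At an unadjusted p under 0.05 there were 4 by edgeR, 2 and 2 by limma-trend, 2 with the replicate block, 1 to 8 with 1 library left out, and 1 and 7 under the axonemal scalings. Over all genes tested this share was 23.3% by edgeR, 21.9% without control 2, and 6.46% and 10.4% under the axonemal scalings. It is not given here for the other settings. DNAH8 had an adjusted p of 0.0404 by edgeR, 7.04e-05 by DESeq2, 0.0604 by limma-voom, 0.157 and 0.0801 by limma-trend and 0.175 with the replicate block. The median log2 fold change ran from -0.17 (without control 2) to 0.56 (without control 3) for axonemal and from -0.07 (without control 2) to 0.47 (without Oxy@Lipo/Gel 3) for IFT genes. The cause of these differences was not tested. Replicate numbers gave no sign of pairing: deviations of same-numbered libraries correlated with r of 0.23, -0.35 and -0.16. The highest r was 0.37, between control 3 and Oxy@Lipo/Gel 2. These correlations cannot show whether the design was paired. Of the 34 named genes, 0 to 10 uncalled ones changed sign in any setting.

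With 3 libraries a group and 1 control far from the others, SEs of axonemal genes were wide. In control 2, 12 of the 103 genes had under 100 counts. The planned description of promoter motifs was not run, since no sequence was used here.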

Other observations

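Among the regulators of multiciliated cells, 2 that act early in the same programme had fold changes of opposite sign; both were picked after their values were seen. MCIDAS was at 13.5, 3.46 and 9.13 CPM in the controls and 38.1, 32.8 and 15.9 CPM with Oxy@Lipo/Gel, every Oxy@Lipo/Gel library above every control (log2 fold change 1.73 ± 0.54, edgeR adjusted p = 0.139). GMNC, which acts upstream of MCIDAS, was at 39.2, 12.6 and 54.8 CPM in the controls and 14.3, 11.2 and 7.61 CPM with Oxy@Lipo/Gel, overlapping through control 2 (log2 fold change -1.69 ± 0.53, edgeR adjusted p = 0.141). Without control 2 the log2 fold changes were 1.35 and -2.09, with edgeR adjusted p of 0.159 and 0.0533. That fit kept Oxy@Lipo/Gel 3, the lowest library of its group for both genes. Neither was called, and FOXJ1, downstream of both, was low in control 2 and Oxy@Lipo/Gel 3, as the axonemal genes were.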
